A study of Caenorhabditis elegans with 10 samples.

Results

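The probe sets described here were those whose signal was lower on every adult array than on any larval array of Caenorhabditis elegans, by the widest margin. For each probe set the gap was taken as the lowest value on the 4 larval arrays minus the highest value on the 6 adult arrays, on the log2 scale. The 200 probe sets with the largest gaps were kept, out of 22548 on the array after 77 controls were left out. A working name for them was probe sets lost from larva to adult, and the detection calls below go against the word lost for most of them, so they are called the larva-high probe sets here. The stage values chose them, so their levels in adults and larvae are given as a description with no test. Only differences between genotypes and between replicates were tested. The rule used the lowest larval and the highest adult array, so it also bears on the spread within each stage.

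The series measured RNA from whole worms on 10 Affymetrix 3′ expression arrays, to set a nep-1 mutant against wild type at each of 2 stages. There were 3 adult mutant and 3 adult wild-type arrays, and 2 mutant and 2 wild-type arrays of larval stage L3. The mutant groups carried a nep-1 allele isolated after mutagenesis with EMS, a chemical mutagen, and the wild type was the Bristol variety from the Caenorhabditis Genetics Center. The descriptions name a larval mutant array BR2845L3 and adult mutant arrays 2815A and 2815B under the same genotype label, so whether both stages used the same mutant strain is not known, which touches each comparison of the mutant across stages. All worms were grown at 20 °C on NGM agar with Escherichia coli OP50 as food, and their ages in hours were not given in the sources used here. The titles call the replicates biological, and nothing further says how the cultures were kept apart, so each p-value below measures the spread between these arrays only. In whole worms, fewer cells of a type and less RNA per cell cannot be told apart.

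L3 is the stage before the last larval stage, when the worm still grows and moults and its gonad is not yet mature. At each moult the epidermis builds a new cuticle, largely of collagens, and many genes of cuticle synthesis are known to be switched on and off in step with the moulting cycle. The adult no longer moults, and in the hermaphrodite a large share of its RNA comes from the germ line and developing embryos. nep-1 encodes a neprilysin, a membrane-bound metallopeptidase that cleaves small peptides outside the cell.

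The targeted gene was checked first. The nep-1 probe set 188537_s_at, which is not among the 200, measured 5.05, 5.10 and 5.42 in adult mutants and 6.01, 6.85 and 7.32 in adult wild type on the log2 scale. It measured 5.20 and 4.85 in larval mutants and 8.19 and 9.17 in larval wild type, so every mutant array lay below every wild-type array of its stage. Across the series, 49.6% to 61.8% of probe sets were called present on an array, and the median over all probe sets was 5.82 to 6.09 (log2) on every array. Array descriptions name the arrays in pairs of 1 mutant and 1 wild type: 2 larval pairs, and 3 adult pairs whose names carry the letter A, the letter B or no letter or number. The last of these, called the bare-name pair here, was adult mutant 1 with adult wild type 3. It stood apart from the other adult arrays, and adult counts and folds are also given without it.

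The larva-high probe sets were of low signal in adults and of moderate to high signal in larvae. Their median level was 5.28, 4.83 and 4.75 (log2) on the adult mutant arrays and 4.85, 4.84 and 5.73 on the adult wild-type arrays. In larvae the mutant arrays had medians of 7.32 and 7.76 and the wild-type arrays 7.61 and 7.54. On the adult mutant arrays 136, 164 and 164 of the 200 lay below the array's own median, and on the adult wild-type arrays 167, 163 and 110 did. Among larvae, 23 and 13 lay below it in mutants, and 20 and 13 in wild type.

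**Figure D1:**
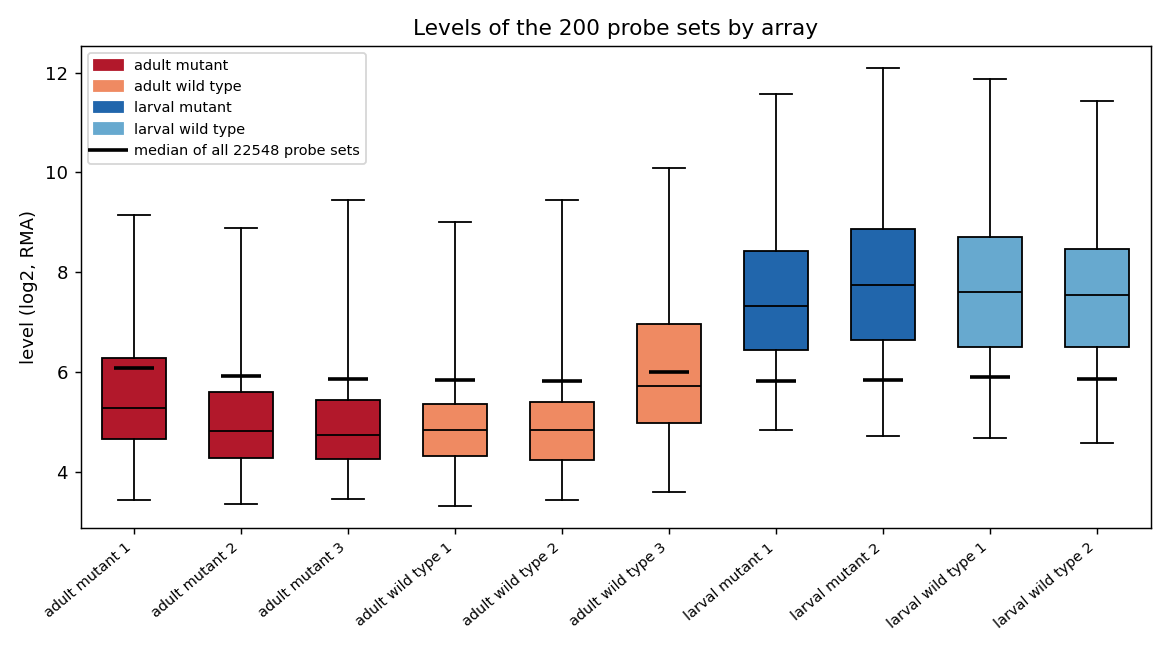
Levels of the 200 larva-high probe sets on each of the 10 arrays, on the deposited log2 scale, with adult arrays left of larval arrays, boxes for the quartiles and median, whiskers for the lowest and highest values and a thick line for the median of all probe sets. The medians of the adult arrays run from 4.75 to 5.73, and those of the larval arrays from 7.32 to 7.76.

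The gap of the 200 ran from 0.89 to 2.33 with a median of 1.16 (log2). Adult levels below all larval levels were seen for 2993 of 22548 probe sets (13.3%), a share that the choice of the 200 used and from which nothing is read. The opposite order, every adult array above every larval array, held for 3915 probe sets (17.4%). The gap at rank 200 in that direction was 2.35 and the largest was 8.31, against 0.89 and 2.33 for the larva-high direction.

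The widest gap belonged to 181766_at, for which the files used here give no gene name. It measured 3.76, 3.56 and 3.70 in adult mutants and 4.30, 3.66 and 4.65 in adult wild type, against 7.15 and 7.02 in larval mutants and 7.47 and 6.98 in larval wild type. It was called present on 1 of the 6 adult arrays, the bare-name wild type, and on all 4 larval arrays. The second, 177716_at, was nearly flat within each stage. It measured 3.92, 4.09 and 4.04 in adult mutants and 4.03, 4.13 and 4.25 in adult wild type, against 6.61 and 6.63 in larval mutants and 6.49 and 6.56 in larval wild type. It was nonetheless called present on 4 of the 6 adult arrays, so a low level here was not an absent call.

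The third, 189983_at, measured 5.22, 4.75 and 5.22 in adult mutants and 4.77, 4.98 and 6.24 in adult wild type, against 8.71 and 9.06 in larval mutants and 8.70 and 8.25 in larval wild type. The fifth, 180882_s_at, measured 6.13, 4.82 and 4.49 in adult mutants and 5.05, 4.46 and 6.65 in adult wild type, against 8.84 and 9.38 in larval mutants and 9.43 and 8.60 in larval wild type. In both, the highest adult array was the bare-name wild type, and in 180882_s_at the bare-name mutant came next. The seventh, 181369_at, held a narrow band within each stage. It measured 3.88, 3.76 and 3.98 in adult mutants and 4.005, 3.82 and 4.05 in adult wild type, against 5.99 and 6.12 in larval mutants and 5.97 and 6.03 in larval wild type. It was called absent on all 10 arrays, so its place near the top rests on values that the detection call puts at background on both sides.

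The other 7 of the 12 widest gaps were those of 179868_at (1.95), 176047_at (1.92), 177717_s_at (1.83), 175060_at (1.77), 192511_s_at (1.76), 175363_at (1.75) and 184555_at (1.74). All 7 were called present on all 4 larval arrays, and each had at least 1 present call in adults. 176047_at measured 5.83, 5.28 and 4.88 in adult mutants and 5.17, 5.15 and 6.06 in adult wild type, against 8.77 and 9.18 in larval mutants and 8.73 and 7.99 in larval wild type. Its larval wild-type 2 array was the low one of the larvae, a pattern that returns below for many of the 200.

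**Figure D2:**
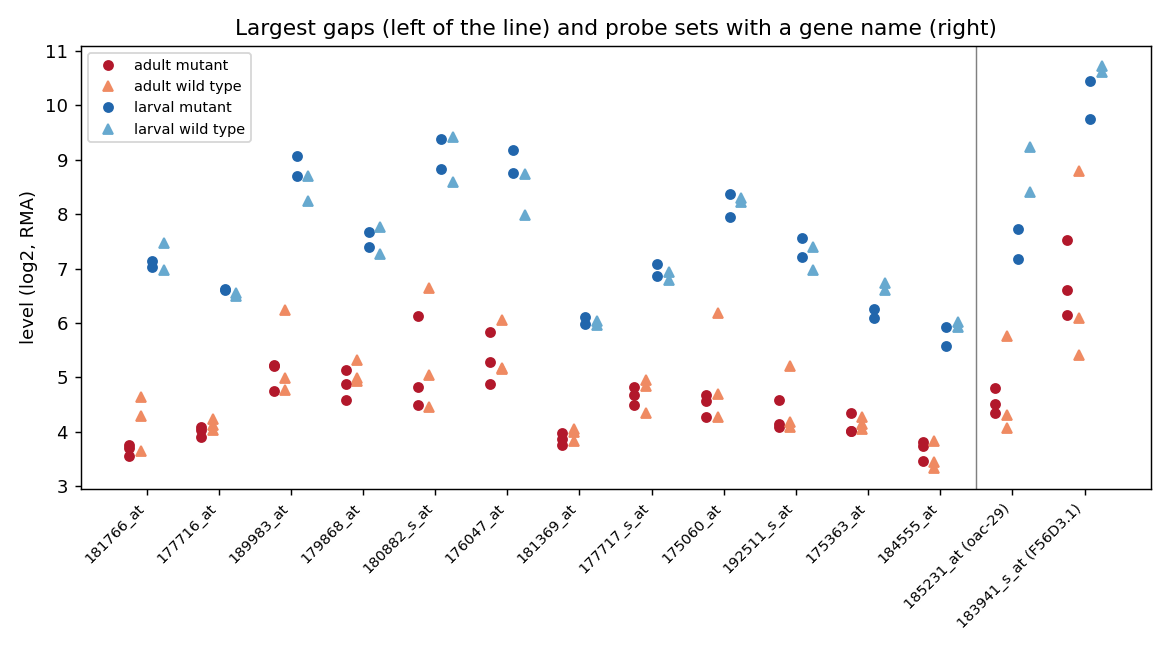
Values of the 12 probe sets with the widest gaps (left) and of the larva-high probe sets that carry a gene name (right) on every array, in log2 units, one point per array. Adult points lie left of larval points and do not overlap them in any row, as the choice requires.

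The threshold fell in a dense stretch of values. The last probe sets inside it were 186202_s_at (gap 0.90), 193885_at (0.89) and 175142_at (0.89), and the first outside were 180362_at (0.89), 185902_at (0.89) and 174256_at (0.88). 175142_at averaged 5.81 ± 0.36 in adults and 7.40 ± 0.29 in larvae (log2, SD, n = 6 and 4). 180362_at, just outside, averaged 6.75 ± 0.25 in adults and 8.07 ± 0.10 in larvae. Membership near rank 200 was therefore decided by differences far smaller than the spread between arrays.

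As stage means, the 200 averaged 3.59 to 9.34 in adults (median 5.11) and 4.73 to 11.47 in larvae (median 7.51). The adult minus larval difference ran from -4.82 to -1.06 with a median of -2.27, against a median of -0.06 over all 22548 probe sets. In linear terms the larval mean was 2.09 to 28.3 times the adult mean, with a median of 4.84, and it was over 4-fold for 134, over 8-fold for 51 and over 16-fold for 10. Without the bare-name pair the median difference was -2.47, the median fold 5.54, and 25 were over 16-fold.

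The 10 probe sets over 16-fold were singled out after their values were seen. The largest fold over all 6 adult arrays, 28.3, belonged to 184194_s_at, which measured 3.71, 4.51 and 3.75 in adult mutants and 3.45, 3.88 and 7.41 in adult wild type, against 8.44 and 9.75 in larval mutants and 8.93 and 9.98 in larval wild type. A single adult array, the bare-name wild type, carried signal close to the larval range. The next, 192712_at with 25.6-fold, measured 6.28, 5.14 and 3.95 in adult mutants and 4.35, 4.41 and 7.65 in adult wild type, against 9.95 and 10.34 in larval mutants and 10.40 and 9.21 in larval wild type. There both bare-name arrays were the highest adults. The remaining 8 were 175115_at (23.6-fold), 182386_s_at (23.2), 177643_at (22.7), 176459_at (20.4), 178508_at (17.9), 177505_at (17.7), 184828_s_at (16.9) and 178194_at (16.7). In each of these 8, the bare-name wild type was the highest adult array and the bare-name mutant the second. Against the other 4 adult arrays alone the order changed, with 51.3-fold for 175115_at, 46.4 for 177643_at, 45.7 for 192712_at, 44.6 for 176459_at, 43.7 for 182386_s_at and 41.6 for 184194_s_at. Among these, 192712_at, 182386_s_at and 184194_s_at were called present on none of the 4 adult arrays, so their ratios rest on adult values not called present.

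Detection calls in the authors' deposited comparison tables mark each probe set as present, marginal or absent on each array. The larva-high probe sets were called present far more often in larvae, yet most were detected in at least some adults. Present calls covered 127, 88 and 50 of the 200 on the adult mutant arrays and 39, 65 and 148 on the adult wild-type arrays. In larvae they covered 168 and 187 for the mutant and 175 and 185 for wild type. The adult counts therefore ran from 19.5% to 74.0% between arrays of the same genotype, and both of the highest were the bare-name pair.

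Of the 200, 37 were called present on no adult array, 31 on 1, 33 on 2, 37 on 3, 22 on 4, 19 on 5 and 21 on all 6. Among all probe sets 27.4% were present on no adult array and 43.8% on all 6, so intermediate counts were common among the larva-high probe sets. Without the bare-name pair, 91 of the 200 were present on none of the 4 other adult arrays, against 34.4% of all probe sets. In larvae 163 were present on all 4 arrays (44.2% of all probe sets), and 8 were present on none (36.5%). Those 8 were present on no array at all, and 21 were present on all 10 (37.5% of all).

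**Figure D3:**
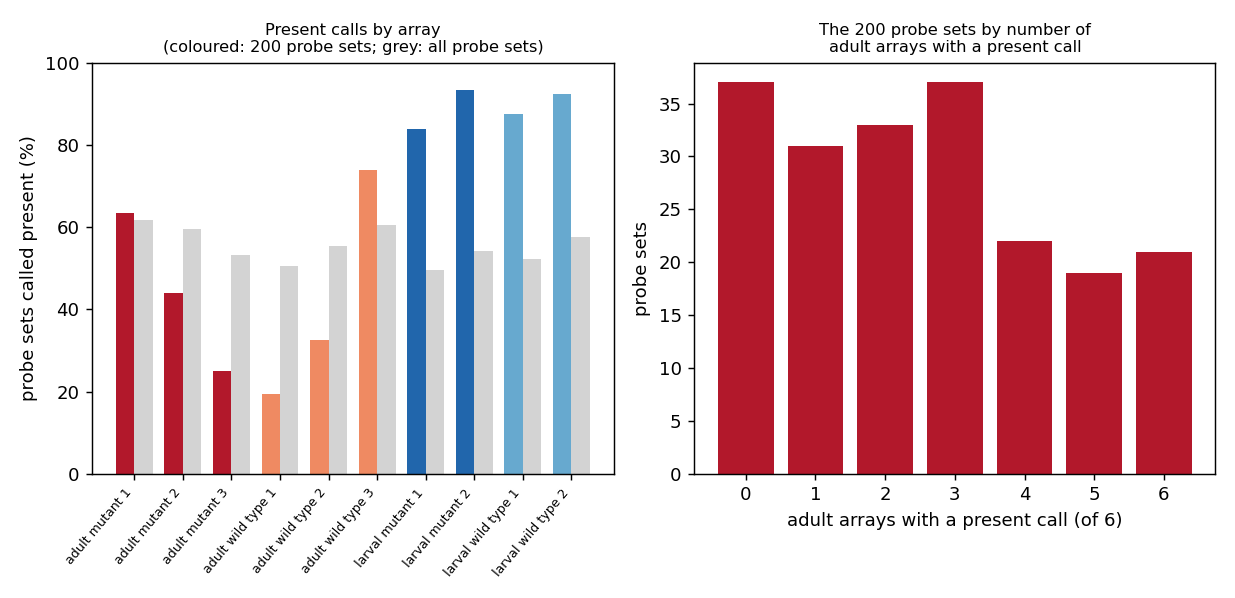
Present calls among the 200 larva-high probe sets for each array (left) and the 200 grouped by the number of adult arrays with a present call (right). Coloured bars, the share of the 200 in percent, run from 19.5% to 74.0% on adult arrays and from 84.0% to 93.5% on larval arrays, and grey bars show the share of all probe sets.

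A clean switch, present on all 4 larval arrays and on no adult array, was seen for 12 of the 200, and for 20 of all 22548 probe sets (0.0887%). Without the bare-name pair it was seen for 58 of the 200, and for 1.02% of all probe sets. For a probe set called present on no adult array the fold is a lower bound: the larval mean against the higher, on each adult array, of the lowest signal among present probe sets and the probe set's own signal. By that rule 183222_at was at least 9.34-fold lower in adults, 184813_at at least 6.89-fold and 189874_at at least 5.41-fold. The bounds of the other 9 were at least 2.65-fold (193442_at) to at least 4.63-fold (181912_at). For all 12 the probe set's own adult signals were the higher, so each bound equals the plain fold of the means. 183222_at averaged 6.01 ± 0.91 in adults and 9.23 ± 0.43 in larvae (log2, SD, n = 6 and 4), and 184813_at averaged 4.95 ± 0.26 in adults and 7.73 ± 0.53 in larvae. Bounds could be set for 29 of the 37 probe sets called present on no adult array, with a median of at least 4.19-fold.

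The scaled signals in the same tables put the 200 in the same order for most. Every larval signal exceeded every adult signal for 176 of the 200. The median scaled signal was 72.2, 24.3 and 20.5 on the adult mutant arrays and 20.2, 20.6 and 90.8 on the adult wild-type arrays. In larvae it was 284 and 297 for the mutant and 301 and 211 for wild type. In both units the bare-name adult arrays lay between the other adults and the larvae. In scaled signals the median of all probe sets was also higher on these arrays, at 105 on mutant 1 and 83.8 on wild type 3, against 44.7 to 54.9 on the other adults.

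That pair, and mostly its wild type, set the upper edge of the adult values. The highest adult array was wild type 3 for 145 of the 200 (12.1% of all probe sets) and mutant 1 for 23 (28.6%). Together, 168 peaked in adults on a bare-name array, against 40.7% of all probe sets. Both bare-name arrays lay above all 4 other adult arrays for 116 of the 200, against 20.4% of all probe sets. The mean of the bare-name pair minus the mean of the other 4 adult arrays had a median of 0.60 (log2) over the 200 and of -0.0038 over all probe sets, and it was above 0 for 184 of the 200, against 49.7%. Setting arrays aside can only widen a gap or leave it as it was. Without the bare-name pair the median gap was 1.83 over the 200 and -0.46 over all probe sets, against 1.16 and -0.76 with it. The lowest larval array was mutant 1 for 76 of the 200 (34.2% of all probe sets), mutant 2 for 24 (25.9%), wild type 1 for 17 (11.3%) and wild type 2 for 83 (28.6%). Whether age, culture or processing of these arrays has a part in this was not tested.

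By name the 200 could be described only in small part. The authors' lists of changed transcripts pair probe sets with gene numbers, and 2 of the 200 (1.0%) are on them, against 196 of all 22548 (0.869%). The other 198 have no gene name in the files used here. In the identifiers, the suffixes _s_at and _x_at mark probe sets that can match several transcripts. By suffix, 153 end in _at (76.5%, against 70.2% of all), 41 in _s_at (20.5%, against 24.3%) and 6 in _x_at (3.0%, against 5.44%).

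The first named gene was oac-29, which encodes a homolog of the O-acyltransferases, a large worm family of predicted membrane enzymes. Its probe set 185231_at, rank 39 with a gap of 1.42, measured 4.80, 4.51 and 4.35 in adult mutants and 4.31, 4.08 and 5.75 in adult wild type, against 7.18 and 7.72 in larval mutants and 8.41 and 9.23 in larval wild type. Both larval mutants lay below both larval wild types, by 1.50 in larval pair 2 and by 1.23 in larval pair 1. The authors' deposited lists hold oac-29 among transcripts decreased in larval mutants in all 4 array comparisons, so its direction there was chosen on these samples. Over the 4 larval arrays the mutant minus wild-type difference was -1.37 ± 0.54 (log2, SE), with an adjusted p = 1 by limma over all probe sets and an unadjusted p = 0.0329. Leaving out 1 array at a time gave -1.78 to -0.96. In adults it was called present in mutants 1 and 2 and in wild type 3, and the genotype difference there was -0.16 ± 0.44.

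The second was F56D3.1, known only by its sequence name, on probe set 183941_s_at at rank 179 with a gap of 0.95. It measured 7.52, 6.61 and 6.14 in adult mutants and 6.10, 5.41 and 8.79 in adult wild type, against 9.74 and 10.44 in larval mutants and 10.61 and 10.72 in larval wild type. The larval wild types were the highest and the adult wild types spanned the widest range. The larval difference was -0.57 ± 0.96 and the adult difference -0.01 ± 0.78 (log2, SE), and neither passed the test. The authors' deposited lists hold it among transcripts decreased in at least 3 of 4 larval comparisons.

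No other gene named on the authors' lists was among the 200, although most of these genes were also lower in adults. Of the 145 named genes, 118 had a lower mean in adults, against 53.6% of all probe sets. Their median adult minus larval difference was -1.20 (log2), against -0.06 over all probe sets. Every adult array lay below every larval array for 19, a share like that of all probe sets (13.3%). These lists were chosen by the authors for genotype changes in these samples and are no random draw of genes. Cuticle collagens, the structural proteins of the worm's outer layer, had 13 named genes, 11 of them lower in adults, with a median of -1.88. rol-6, a collagen whose mutants twist along the body axis, was the only one with a positive gap, 0.35, and averaged 8.43 ± 1.14 in adults and 11.99 ± 0.80 in larvae (SD, n = 6 and 4).

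The other gene families listed were alike in having no member among the 200. All 5 hedgehog-related and patched-related genes were lower in adults, with a median of -2.28 and no positive gap. All 4 pharyngeal cuticle genes of the abu and pqn families were lower, with a median of -2.88, and pqn-13 alone had a positive gap (0.082). All 4 moulting and apical matrix genes were lower, with a median of -1.83, and phat-4 alone had a positive gap (0.31). Of 8 detoxification genes 6 were lower (median -0.57), with the largest gap for cyp-35C1, a cytochrome P450 (0.42). Of 10 lipid metabolism genes 9 were lower (median -0.74), with the largest gap for acox-1.2, a peroxisomal acyl-CoA oxidase (0.0088), and both lys-2, which encodes a lysozyme, and nlp-8, a neuropeptide-like gene, were lower (median -0.50). No gene of the neuronal, muscle, intestine, germline or sperm lists is named in the files used here, so these tissues could not be followed. Large mean differences with small or negative gaps went with wide spread within a stage: col-90, a collagen, averaged 7.97 ± 2.12 in adults and 12.35 ± 0.72 in larvae and had a gap of -0.26.

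No genotype difference was called among the larva-high probe sets in larvae. All 200 were tested, with no filter on low values, and 0 passed an adjusted p of 0.05 by limma with Benjamini-Hochberg adjustment over 22548 probe sets, where 0 passed in all (0.0%). At an unadjusted p under 0.05 there were 2 of the 200, against 0.665% of all probe sets. The mutant minus wild-type difference had a median of 0.02 over the 200 (-0.04 over all probe sets), ran from -1.37 to 0.80, and was above 0 for 111 (42.4% of all probe sets) and below 0 for 89 (57.4%). The median was -0.12 to 0.18 when 1 array was left out, so its direction turned with 1 array. Both mutants lay above both wild types for 18 of the 200, against 7.62% of all probe sets, and below for 24, against 12.6%. Both shares were near those of all probe sets.

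The largest larval differences upward were those of 181480_at, 0.80 ± 0.52 (log2, SE), 186995_at (0.68 ± 0.57), 173271_s_at (0.67 ± 0.55), 183870_at (0.66 ± 0.45), 178194_at (0.64 ± 0.86) and 176047_at (0.61 ± 0.43). 181480_at measured 7.54 and 8.29 in larval mutants and 7.78 and 6.46 in larval wild type, so the groups overlapped and wild type 2 was the low array. 186995_at showed the same low array, with 9.15 and 8.76 in larval mutants and 9.09 and 7.45 in larval wild type. Downward, after oac-29, came 178330_at (-1.10 ± 0.50), 177106_at (-0.72 ± 0.50), 193118_at (-0.69 ± 0.44), 187329_at (-0.64 ± 0.73) and F56D3.1. 178330_at measured 5.76 and 6.65 in larval mutants and 6.53 and 8.08 in larval wild type, and 177106_at measured 6.12 and 6.44 in larval mutants and 6.18 and 7.82 in larval wild type. In both the groups overlapped, and wild type 2 was the high array.

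The 2 larval pairs gave opposite signs for most of the 200. Within pair 2 the mutant minus wild-type difference had a median of 0.23 (0.01 over all probe sets) and was above 0 for 135, against 51.2% of all probe sets. Within pair 1 it had a median of -0.21 (-0.08 over all probe sets) and was below 0 for 153, against 64.9%. The mutant was higher in pair 2 and lower in pair 1 for 107 of the 200, against 33.0% of all probe sets. It was lower in both pairs for 46 (32.0% of all probe sets), higher in both for 28 (18.2%) and lower in pair 2 but higher in pair 1 for 18 (16.8%). A test of the difference between the pairs, chosen after the data were seen and resting on the spread of the adult arrays alone with 2 residual degrees of freedom, gave 0 of the 200 at an adjusted p of 0.05 by limma (0.0% of all probe sets). At an unadjusted p under 0.05 it gave 34, against 3.06%. Each larval arm of that test is 1 array and it was run after the opposite signs had been seen, so it lends them no support.

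**Figure D4:**
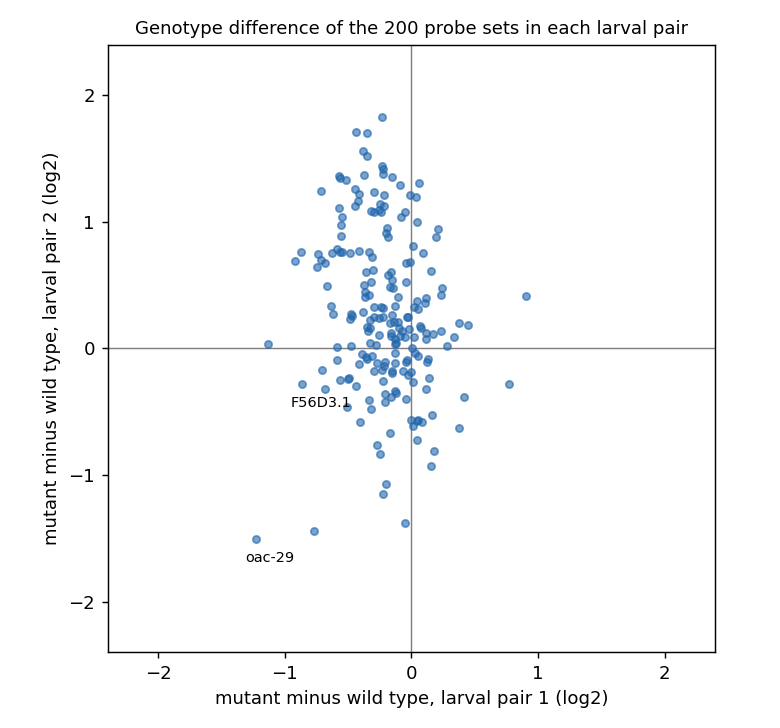
Mutant minus wild-type difference (log2) of the 200 larva-high probe sets within larval pair 2 (vertical) against larval pair 1 (horizontal), one point per probe set. The upper left part, higher in pair 2 and lower in pair 1, holds 107 of the 200.

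The authors' own change calls split by the wild-type array, both within the pairs and across them. Log2 values and scaled signals ordered larval mutant 1 and wild type 2 differently. The median over the 200 was 7.32 on mutant 1 and 7.54 on wild type 2 in log2 values, against 284 and 211 in scaled signals. In scaled signals the median of all probe sets was also higher on mutant 1 (91.0 against 65.1). In the authors' deposited table, larval mutant 2 against wild type 2 was called increased for 91 and decreased for 13 of the 200, against 8.50% and 5.03% of all probe sets. In the authors' deposited table, mutant 1 against wild type 2 gave 62 increased and 10 decreased of the 200, against 2265 and 1138 of all 22548. Against wild type 1, the authors' deposited table gave 2 increased and 12 decreased for mutant 2 (3.38% and 5.39% of all), and 2 and 18 for mutant 1 (1.06% and 2.39%). Of the 200, 53 were increased in the authors' deposited tables in 2 of the 4 larval comparisons and 0 in more than 2, against 4.05% of all probe sets in at least 2. Decreased calls in at least 3 of 4 comparisons in the authors' deposited tables were held by 2 of the 200, oac-29 and F56D3.1, against 0.656% of all. The 4 comparisons share arrays, with each array in 2 of them.

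In adults 0 of the 200 passed the genotype test by limma at an adjusted p of 0.05 (0.0% of all probe sets), and 0 had an unadjusted p under 0.05, against 0.306% of all. The median difference was -0.13 (-0.02 over all probe sets), and it was below 0 for 160 of the 200, against 53.5%. The lean was that of the bare-name pair. There the mutant minus wild-type difference had a median of -0.38 (-0.01 over all probe sets). It was below 0 for 165 of the 200, against 51.3% of all probe sets. The medians were 0.03 in the pair with the letter A and -0.01 in the pair with the letter B. Without the bare-name pair the median over the 200 was -0.01, and without wild type 3 it was 0.13, so the direction turned with 1 array. The 3 adult mutants all lay above the 3 wild types for 1 of the 200 (1.52% of all probe sets), and below for 5 (1.95%).

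The lowest adult differences were those of 184194_s_at (-0.92 ± 0.95, log2, SE), 174389_s_at (-0.68 ± 0.40), 176383_at (-0.65 ± 0.37), 175060_at (-0.54 ± 0.44), 180286_at (-0.53 ± 0.26) and 181766_at (-0.53 ± 0.26). For 184194_s_at the bare-name pair alone differed by -3.69, and without that pair its difference was 0.47. 176383_at measured 6.26, 6.78 and 6.35 in adult mutants and 7.37, 6.52 and 7.44 in adult wild type, which overlap. The highest were 177270_at (0.37 ± 0.38), 178695_at (0.27 ± 0.50), 186655_at (0.26 ± 0.26), 187972_at (0.25 ± 0.38), 190904_s_at (0.24 ± 0.22) and 194089_s_at (0.22 ± 0.23), and none of these passed the test.

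In the authors' deposited tables the adult change calls followed the bare-name arrays. In the authors' deposited table mutant 1 was increased for 104 and decreased for 2 of the 200 against wild type 1 (28.5% and 11.7% of all probe sets), and for 112 and 0 against wild type 2 (29.7% and 14.3%). Against wild type 3, its partner, the authors' deposited table gave 4 increased and 69 decreased (19.8% and 15.8%). In the authors' deposited table mutant 2 against wild type 3 gave 0 increased and 132 decreased (6.82% and 20.3%), and mutant 3 against wild type 3 gave 0 and 140 (5.18% and 22.9%). The comparisons without a bare-name array held few calls among the 200. Mutant 2 in the authors' deposited table had 8 increased and 2 decreased against wild type 1 (7.42% and 3.43%), and 20 and 14 against wild type 2 (13.1% and 13.9%). Mutant 3 in the authors' deposited table had 5 and 12 against wild type 1 (4.25% and 6.53%), and 4 and 8 against wild type 2 (2.97% and 8.71%). The adult minus larval difference of the genotype effect passed for 0 of the 200 by limma (0.0% of all), with 1 at an unadjusted p under 0.05 (0.408%) and a median of -0.16 (0.02 over all probe sets). That median was -0.35 to 0.14 when 1 array was left out, and above 0 without adult wild type 3 (0.14) or larval mutant 2 (0.022). Across all 5 pairs the mutant was lower in every pair for 7 of the 200 (4.51% of all probe sets) and higher in every pair for 1 (1.55%).

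The larval pair 2 minus pair 1 difference, averaged over genotypes, passed for 0 of the 200 by limma at an adjusted p of 0.05 (0.0% of all probe sets), and 24 had an unadjusted p under 0.05, against 20.1% of all. Both pair 2 arrays lay above both pair 1 arrays for 48 of the 200 (30.5% of all probe sets) and below for 24 (29.2%). The rule used the lowest larval array, which bears on how far the larval pairs can differ, so nothing is read from these shares. The median difference was 0.07, and its sign turned under quantile normalisation (-0.10) and with scaled signals (-0.17). A difference between pairs of at least 1 (log2) was held by 7 of the 200, 6 upward and 1 downward, against 4.99% of all probe sets. Without the bare-name adult pair 4 of the 200 passed, among 1164 in all. These were 180481_s_at, 178330_at, 175378_s_at and 176383_at, with adjusted p of 0.0191, 0.0328, 0.0451 and 0.0466 by limma.

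The largest pair difference was that of 180481_s_at, which measured 8.05 in pair 2 and 6.59 in pair 1 for mutants, and 8.46 in pair 2 and 6.93 in pair 1 for wild type. Both genotypes were higher in pair 2 by a like amount, 1.50 ± 0.21 (log2, SE; limma adjusted p = 0.0906). 178330_at (1.22 ± 0.27), 184194_s_at (1.19 ± 0.98), 185933_at (1.14 ± 0.29), 175378_s_at (1.04 ± 0.25) and 175093_at (1.02 ± 0.29) followed. Downward, 186995_at (-1.02 ± 0.30) was led by wild type, with 7.45 in pair 2 against 9.09 in pair 1, while the mutants measured 8.76 in pair 2 and 9.15 in pair 1. 176383_at (-0.92 ± 0.27), 183870_at (-0.88 ± 0.24), 188345_s_at (-0.84 ± 0.44), 173147_s_at (-0.81 ± 0.21) and 174389_s_at (-0.76 ± 0.26) came next.

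The larval replicates of mutant and wild type moved in different ways between the pairs. With 1 array per genotype and pair, this restates the opposite signs within pairs and adds no support to them. Mutant pair 2 minus pair 1 had a median of 0.33 and was above 0 for 154 of the 200, against 56.4% of all probe sets. Wild-type pair 2 minus pair 1 had a median of -0.14 and was above 0 for 80, against 46.0%. Both genotypes were higher in pair 2 for 65 of the 200 (36.3% of all probe sets) and lower for 31 (33.8%). The mutant alone was higher for 89 (20.1%), and wild type alone for 15 (9.68%). Mutant 2 was the highest larval array for 100 of the 200 (29.8% of all probe sets), wild type 2 for 48 (26.9%), wild type 1 for 36 (25.2%) and mutant 1 for 16 (18.1%).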

How the data were processed

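Total RNA extracted with Trizol was labelled with biotin by one-cycle in vitro transcription, per the labels' protocols. The deposited series table holds log2 expression values, which the submitters' processing notes tie to RMA; these were used unchanged. Comparison tables deposited by the authors hold a scaled signal and a detection call for each array and a change call for each mutant and wild-type comparison; the program behind them is not given in the sources used here. Lists deposited by the authors name transcripts changed in several comparisons. The 53 other columns of per-array or per-pair values were not used. Arrays give no read depth, and their number limits the precision.

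The members and lists were chosen with earlier results of these data known. From the log2 values, limma 3.58.1 (R 4.3.3) fitted 4 group means over 10 arrays (6 residual and 2.57 prior degrees of freedom), for mutant minus wild type in larvae, in adults, and the interaction. Larval pair 2 minus pair 1 came from a fit with 5 array pairs and a genotype effect per stage (3 residual and 3.66 prior degrees of freedom). Benjamini-Hochberg adjustment ran over 22548 probe sets, with a threshold of 0.05 and no filter on low values. The script was tested on simulated data. Array pairs come from naming styles in the descriptions: deviations from group means correlated 0.561 within the larval pairs and 0.612, 0.647 and 0.623 within the adult pairs. Title numbers give the same larval pairs, but in adults correlated -0.536, -0.222 and -0.652, so they pair no adult arrays. Named probe sets are the 12 widest gaps, the 3 on either side of the threshold, those on a deposited list, and the 6 highest and 6 lowest of each tested difference. Alternatives were another scaling, unit, filter, variance model or block, and leaving out arrays. Gene symbols came from the gene numbers in the lists through RefSeq names for WBcel235; 152 of 196 listed probe sets gave 1 named gene. No coordinates or sequences are given.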

Additional observations from a re-analysis of the deposited data

How the results depend on the processing

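The genotype tests in larvae and adults and the interaction called 0 of the 200 under every alternative run, including both replicate blocks (0 called with title numbers, and 0 with description pairs, where 6, 5 and 6 had an unadjusted p under 0.05, against 2, 0 and 1 without a block). The larval pair test called 2 with array weights, 4 without the bare-name adult pair, and 0 to 4 when 1 adult array was left out (4 without adult mutant 1 or adult wild type 3). Larval arrays could not be left out of that test. Only the setting without the bare-name pair has its count over all probe sets given, above. The other larval pair counts, and the unadjusted counts with description pairs, stand without that share. Nothing about the 200 is read from them. The choice made without the bare-name pair shared 93 probe sets with the 200, and the one by difference of stage means shared 81. The choice from scaled signals (log2 after adding 16) shared 93, and the one after quantile normalisation shared 154. When 1 array was left out, 119 to 199 were shared (119 without adult wild type 3). Without the bare-name pair, 25 of the 200 in place of 10 were over 16-fold, 91 in place of 37 were present on no adult array, and 58 in place of 12 were present on all larval and no adult arrays. Adult genotype differences turned sign for F56D3.1 (0.10 with array weights, 0.62 without the bare-name pair), oac-29 (0.24) and 184194_s_at (0.47) without that pair, and 194089_s_at (-0.36) with scaled signals. Leaving out 1 array gave adult ranges that crossed 0 for 175060_at (-0.93 to 0.028), 178695_at (-0.21 to 0.72), 184194_s_at (-1.65 to 0.33), 186655_at (-0.031 to 0.45), 187972_at (-0.10 to 0.53), F56D3.1 (-0.69 to 1.002) and oac-29 (-0.48 to 0.36), and larval ranges that did for 177106_at (-1.54 to 0.10), 178194_at (-0.067 to 1.34) and 186995_at (-0.14 to 1.50). The cause was not tested. With 2 larval arrays per genotype, and many of the 200 not called present on adult arrays, small differences were not detectable. The larval SEs also pooled the spread between adult arrays. The median SD over the 200 was 0.35 in adult mutants and 0.51 in adult wild type (log2). In larvae it was 0.27 in mutants and 0.25 in wild type. The larval genotype test passed 0 of all 22548 probe sets, so nep-1 did not pass either. Its larval values were 5.20 and 4.85 in mutants and 8.19 and 9.17 in wild type. The test therefore missed a difference of that size as well, and 0 calls do not show that large differences were absent.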
